A study of Homo sapiens with 2 samples.

Results

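The genes of the translation initiation and elongation factors were examined in RNA sequencing of wild-type (WT) and PERK-KO HEK293 cells. Members were the rows whose gene symbol starts with EIF1 to EIF6, EEF1 or EEF2. Of 69 such rows, 5 were left out because they hold the eIF2α kinases (EIF2AK1 to EIF2AK4) or the eIF2α subunit itself (EIF2S1), and 2 because they are pseudogenes. This left 62 rows of 25277, carrying 60 of 23614 gene names, since EIF3C and EIF3CL stand on 2 rows each. At least 1 FPKM in at least one sample was reached by 60 rows, carrying 58 genes, and all counts below are over these 60 rows. FPKM is a number of sequenced fragments scaled by exon length and by sequencing depth, which is meant to allow comparison between genes of different length. Fold changes between the libraries still moved with transcript length, as described below. The remaining rows were EIF4E1B, at 0 and 0.0319 FPKM, and the antisense RNA EIF1B-AS1, at 0.441 and 0.266 FPKM in WT and PERK-KO cells.

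HEK293 is a human embryonic kidney cell line, and the cells of both genotypes were at passage 15 to 20. Both were kept for 12 h in OXPHOS medium, which has no glucose but 1 mM pyruvate and 10 mM galactose, so that ATP has to come from oxidative phosphorylation. PERK was removed with CRISPR/Cas9 and the edited cells were grown from single cells, so the PERK-KO sample may carry differences of its clone as well as of its genotype, and the 2 cannot be told apart here. Each genotype had 1 library of polyadenylated RNA. No difference between the genotypes could therefore be tested, and no p-value or replicate error is given. The only error in the tables is the pair of confidence limits of each FPKM, given below in parentheses, which covers counting and assignment within a library and leaves out how cultures vary. A difference is called "apart" where these limits do not overlap between the libraries. In bulk RNA, fewer cells with a transcript and less of it per cell cannot be told apart.

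PERK is a kinase of the endoplasmic reticulum that phosphorylates the α subunit of eIF2. eIF2 carries the initiator methionyl-tRNA to the small ribosomal subunit as a complex with GTP, and eIF2B recharges it with GTP after each round; phosphorylated eIF2 holds eIF2B back and lowers initiation. The cap-binding complex eIF4F and the scaffold eIF3 bring the mRNA to the small subunit, eIF5B joins the large subunit, and the elongation factors eEF1 and eEF2 then deliver aminoacyl-tRNAs and move the ribosome along. Many mRNAs of this machinery start with a C followed by an unbroken run of pyrimidines, the terminal oligopyrimidine motif through which the mTOR pathway controls their translation.

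Sequences around the annotated transcription start are shown because this pyrimidine start is a feature that many members share. Each window holds 30 bases of GRCh37, read 5′ to 3′ on the gene's strand, the first 10 of them upstream of the start, with the pyrimidine run that begins at the start in capitals. The first lines hold elongation factors and initiation factors with the run, and the last 2 hold members without it.
EEF1A1, chr6:74230736-74230765, minus strand: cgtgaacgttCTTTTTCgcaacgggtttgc
EEF2, chr19:3985442-3985471, minus strand: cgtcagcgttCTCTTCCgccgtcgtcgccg
EEF1B2, chr2:207024609-207024638, plus strand: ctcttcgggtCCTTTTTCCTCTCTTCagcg
EIF2A, chr3:150264564-150264593, plus strand: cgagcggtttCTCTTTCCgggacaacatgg
EIF3K, chr19:39109818-39109847, plus strand: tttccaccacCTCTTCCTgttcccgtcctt
EIF3A, chr10:120840310-120840339, minus strand: gtggctccttCCTTTCCgtctctggccggc
EIF5B, chr2:99953842-99953871, plus strand: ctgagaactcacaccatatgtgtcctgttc
EIF4G3, chr1:21503371-21503400, minus strand: ttttccgagcagccgtcctgccggactgct

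A C at the start with a run of at least 5 pyrimidines, counted from that C, was found for 19 of 56 member promoters (33.9%), against 695 of 12766 promoters of all protein-coding genes with at least 1 FPKM (5.44%). The 19 genes were EEF1A1, EEF1A2, EEF1B2, EEF1D, EEF2, EIF2A, EIF2D, EIF2S3, EIF3A, EIF3C, EIF3D, EIF3E, EIF3F, EIF3H, EIF3K, EIF3L, EIF3M, EIF4A2 and EIF4B. A match describes the letters at an annotated start and not a measured one.

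The factors are among the most abundant mRNAs of these cells. Their median was 109.6 FPKM in WT cells, compared with 9.41 over all 14594 rows with at least 1 FPKM, and 52 rows were at 10 FPKM or more and 31 at 100 or more. EEF1A1, EEF1G and EEF2 were the 3 most abundant rows and held 51.2% of the members' summed FPKM there and 51.8% in PERK-KO cells. The members summed to 18202 FPKM in the WT library and 17126 in the PERK-KO library, where all rows summed to 896741 and 779062. All members together thus took 2.03% of the summed FPKM of the WT library and 2.2% of that of the PERK-KO library. The larger share in PERK-KO cells goes with a smaller total and not with a larger sum of the members. Their confidence limits were narrow, with a median half-width of 4.67% of the value in WT and 4.27% in PERK-KO cells, against 9.01% and 9.39% over all rows at 1 FPKM or more.

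Between the genotypes, the factors differed little. At a limit of 1.5-fold, 1 member was higher in PERK-KO cells (EIF2A) and 3 were lower (EIF5B, EIF3K and EIF4EBP3). The transcript of EIF4EBP3 shares 73.2% of its bases with an overlapping row. The sum of these 2 rows had a log2 change of -0.21, as described below. Over all rows, 10.1% passed the limit upwards and 7.54% downwards, 17.7% in either direction, compared with 6.67% of the members. Among the 7709 rows of at least 10 FPKM these shares were 7.51%, 7.63% and 15.1%. The confidence limits were apart for 37 members (61.7%), of which 15 were higher in PERK-KO cells and 22 were lower (36.7% of the members), while 23 overlapped. Over all rows 44.8% were apart, 26.1% higher and 18.7% lower, and over the rows of at least 10 FPKM 58.6% were, 29.7% higher and 28.9% lower. The share of members apart was thus close to that of abundant rows in general. Counts of genes apart in the groups below are to be read against these shares. The median log2 fold change, PERK-KO over WT, was 0.01 over the members and 0.04 over all rows. The quartiles of the members were -0.23 and 0.20, and those of all rows -0.22 and 0.31. Near the 1.5-fold limit, a log2 value of 0.585, EIF2A was just past it at 0.59. EIF4G3 at 0.51 and EIF4E2 at -0.51 did not reach it.

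**Figure D1:**
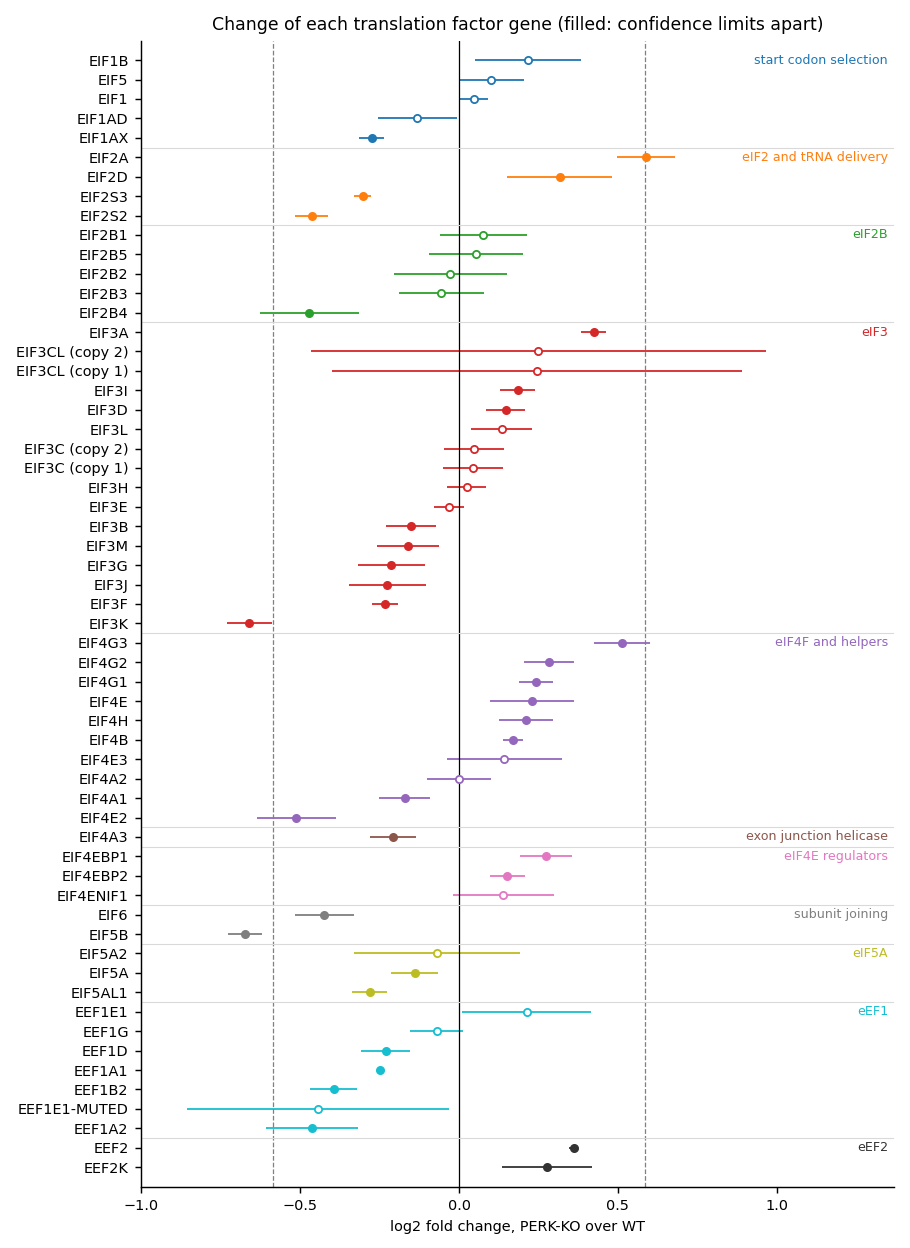
Log2 fold change (PERK-KO over WT) of each translation factor gene by role, with bars for the 95% interval computed from the confidence limits of both libraries, filled points where the limits are apart and dashed lines at the 1.5-fold limit. EIF5B at -0.67 and EIF3K at -0.66 lie below the lower line and EIF2A at 0.59 on the upper one; EIF4EBP3, listed at 0 in PERK-KO cells, and EIF1AY are not drawn.

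Fold changes moved with transcript length in these libraries, and this touches every group below. Over 13717 rows with a length, Spearman's rho between log2 fold change and transcript length was 0.443, and over the 58 member rows with a length it was 0.348, both across genes of the same 2 libraries and given as descriptions. Members under 1500 bases had a median of -0.15 (16 rows), those from 1500 to 3000 bases -0.04 (18 rows) and those of 3000 bases or more 0.14 (24 rows). All rows of the same classes had medians of -0.27, -0.04 and 0.19. A member's length-adjusted value below is its log2 fold change minus the running median of all rows near it in length. Of the 58 rows, 29 lay above that running median and 29 below. How far length contributed to a single gene's difference was not tested.

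Start codon selection involves eIF1 and eIF1A, which hold the scanning ribosome open, and eIF5, which makes eIF2 hydrolyse its GTP. EIF1 had 414 FPKM (405 to 423) in the WT library and 428 (418 to 437) in the PERK-KO library, a log2 change of 0.05 with overlapping limits, and was the most abundant of the group. EIF1AX, the X-linked gene of eIF1A, had 152 FPKM (149 to 155) and 126 (123 to 128), 1.21-fold lower and apart. EIF5 was at 32.2 and 34.6 FPKM and EIF1B, a close copy of EIF1, at 47.0 and 54.6. EIF1AD, an eIF1A-domain protein, was at 25.3 and 23.1 FPKM, and the limits of these 3 genes overlapped. EIF1AX was thus the single member of this group of 6 whose limits were apart. The length-adjusted values were 0.40 for EIF1, 0.50 for EIF1B and -0.45 for EIF1AX, each farther from 0 than the unadjusted value. EIF1AY, the Y-linked copy, counts as a member and its values are not given.

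Among the factors that bring the initiator tRNA, the β and γ subunits of eIF2 had less mRNA in PERK-KO cells, and the alternative factors had more. EIF2S2, the β subunit, had 153 FPKM (149 to 156) in the WT library and 111 (107 to 114) in the PERK-KO library, a log2 change of -0.46 (95% interval -0.52 to -0.41). EIF2S3, the GTP-binding γ subunit, had 434 FPKM (429 to 439) and 352 (347 to 357), a log2 change of -0.30 (-0.33 to -0.28). Their transcripts have 2556 and 3457 bases, and their length-adjusted values were -0.46 and -0.37. EIF2A, which is not a subunit of eIF2 but a separate protein able to bind initiator tRNA, lies on chromosome 3 (GRCh37, 150264574 to 150303803). It had 22.6 FPKM (21.5 to 23.7) in the WT library and 33.96 (32.5 to 35.4) in the PERK-KO library, 1.504-fold higher with a log2 change of 0.59 (0.50 to 0.68). EIF2D, which can also deliver tRNA to the ribosome and helps recycle it, had 19.5 FPKM (17.9 to 21.2) and 24.3 (22.4 to 26.3), a log2 change of 0.32. Adjusted for length, EIF2A came to 0.44, below the 1.5-fold limit, and EIF2D to 0.37. All 4 genes of this group had limits apart, 2 in each direction. Over all rows of at least 10 FPKM, 29.7% were apart and higher and 28.9% apart and lower.

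The 5 subunits of eIF2B, the exchange factor that phosphorylated eIF2 inhibits, had overlapping limits in the 2 libraries with 1 exception. EIF2B1, of the regulatory subcomplex, had 41.9 FPKM (39.1 to 44.7) in the WT library and 44.2 (41.1 to 47.2) in the PERK-KO library. EIF2B2, also regulatory, had 20.8 (19.01 to 22.6) and 20.4 (18.5 to 22.3). EIF2B3, of the catalytic subcomplex, had 37.5 (35.1 to 39.9) and 36.1 (33.6 to 38.6). The limits of these 3 subunits overlapped, with log2 fold changes between -0.06 and 0.08. EIF2B5, the catalytic subunit, was the least abundant, with 14.3 (13.3 to 15.4) and 14.9 (13.8 to 16.0), also overlapping. EIF2B4, the third regulatory subunit, had 32.1 (29.9 to 34.4) in the WT library and 23.2 (21.2 to 25.1) in the PERK-KO library, 1.39-fold lower with a log2 change of -0.47 (-0.63 to -0.32). The most abundant subunit stood 2.92-fold above the least abundant in WT cells and 2.97-fold in PERK-KO cells.

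eIF3 is the large scaffold of initiation, with 13 subunits named EIF3A to EIF3M. The limits of 6 subunits were apart and lower in PERK-KO cells, those of 3 were apart and higher, and the group's median log2 fold change over 16 rows was 0.03. These rows hold EIF3C and EIF3CL more than once, and with rows of one name summed the median was -0.0037. EIF3K, a small peripheral subunit on chromosome 19 (GRCh37, 39109722 to 39127595), had 319 FPKM (309 to 329) in the WT library and 202 (194 to 210) in the PERK-KO library. It was 1.58-fold lower, with a log2 change of -0.66 (-0.73 to -0.59). Its transcript of 780 bases is among the short ones, and its length-adjusted value was -0.32. EIF3F, the most abundant subunit, had 510 FPKM (500 to 520) and 434 (424 to 444), a log2 change of -0.23. EIF3J, a loosely bound subunit, was the least abundant, at 48.5 and 41.4 FPKM, also lower and apart. EIF3B, EIF3G and EIF3M were lower by 0.15 to 0.21 on the log2 scale, also with limits apart. After the adjustment for length, EIF3G and EIF3M changed sign, to 0.04 and 0.08.

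EIF3A, the largest eIF3 subunit, differed in the other direction. It had 96.5 FPKM (94.6 to 98.5) in the WT library and 129 (127 to 132) in the PERK-KO library, a log2 change of 0.42 (0.38 to 0.46), and 0.16 after the adjustment for its length of 6659 bases. EIF3I had 213 and 242 FPKM and EIF3D, which can itself bind the cap of some mRNAs, 122 and 135 FPKM, both apart. EIF3E, EIF3H and EIF3L overlapped, at 322, 210 and 174 FPKM in WT cells and 315, 214 and 191 FPKM in PERK-KO cells. EIF3E and EIF3H also changed sign with the adjustment for length, from -0.03 to 0.11 and from 0.02 to -0.12. The spread across the complex was alike in both libraries, with EIF3F 10.5-fold above EIF3J in each. EIF3C stands on 2 rows of chromosome 16 because its locus is duplicated there. These rows held 109 and 110 FPKM in WT cells and 112 and 114 FPKM in PERK-KO cells. The second came from 0.05 to -0.02 with the adjustment for length, and the first had no length. The sources used here do not say how fragments that match both copies were assigned, so neither these rows nor the 2 EIF3CL rows, which lay between 1.205 and 1.45 FPKM, can be read as separate genes.

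In the cap-binding group, 6 of 10 genes were apart and higher in PERK-KO cells and 2 apart and lower. Over all rows 26.1% were apart and higher and 18.7% apart and lower. The group's median length was 3178.5 bases, and of the 6573 rows of 3000 bases or more, 2800 were apart and higher and 544 apart and lower. Its median log2 fold change of 0.19 came to 0.07 after the adjustment for length. The eIF4G scaffolds, which join the cap-binding protein to the helicase and to eIF3, were all higher. EIF4G1 had 153 FPKM (149 to 157) in the WT library and 181 (176 to 186) in the PERK-KO library. EIF4G2, a shorter relative that does not bind eIF4E, had 249 (240 to 259) and 303 (291 to 315). EIF4G3 had 22.6 (21.5 to 23.6) and 32.2 (30.8 to 33.5), 1.43-fold higher with a log2 change of 0.51 (0.42 to 0.60). The 3 genes summed to 425 FPKM in WT and 516 FPKM in PERK-KO cells, and EIF4G2 held 58.7% of that sum in both. The length-adjusted values were 0.05 for EIF4G1, 0.18 for EIF4G2 and 0.33 for EIF4G3.

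The cap-binding proteins themselves differed among each other. EIF4E, the cap-binding subunit of eIF4F, had 21.5 FPKM (20.1 to 22.9) in the WT library and 25.2 (23.6 to 26.9) in the PERK-KO library, a log2 change of 0.23 (0.10 to 0.36). EIF4E2, a homologue that binds the cap without joining eIF4G in the usual complex and takes part in repression of selected mRNAs, had 84.0 (79.5 to 88.6) and 58.9 (54.8 to 63.1), 1.43-fold lower with a log2 change of -0.51 (-0.64 to -0.39). EIF4E3 was low, at 5.09 and 5.62 FPKM, and overlapped. The share of EIF4E in the summed FPKM of the family was thus 19.4% in WT and 28.1% in PERK-KO cells, and that of EIF4E2 76.0% and 65.6%. EIF4E2 has a matched transcript of 967 bases, and its length-adjusted value was -0.21.

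The helicase EIF4A1, the most abundant gene of the group, had 833 FPKM (800 to 866) in the WT library and 740 (710 to 769) in the PERK-KO library, a log2 change of -0.17, apart. Its paralogue EIF4A2 had 161 FPKM in both. Their helpers EIF4B and EIF4H, RNA-binding proteins that stimulate the helicase, had 220 and 182 FPKM in WT cells and 247 and 210 FPKM in PERK-KO cells, both higher and apart. EIF4A3, a helicase of the exon junction complex that shares the name but not the role in cap-dependent initiation, had 114 FPKM (110 to 118) and 98.4 (94.6 to 102), 1.16-fold lower and apart. Adjusted for length, EIF4A1 came to -0.06, EIF4A2 to 0.08, EIF4B to 0.03 and EIF4A3 to -0.05. EIF4H stayed at 0.21. EIF4A1 overlaps the readthrough row SENP3-EIF4A1, which was below 1 FPKM in both libraries.

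Of the eIF4E-binding proteins, which compete with eIF4G for eIF4E until mTOR phosphorylates them, the abundant ones were slightly higher in PERK-KO cells. EIF4EBP1 had 170 FPKM (163 to 177) in the WT library and 206 (197 to 214) in the PERK-KO library, a log2 change of 0.27 (0.19 to 0.36), and EIF4EBP2 36.7 (35.7 to 37.7) and 40.8 (39.7 to 41.9), a log2 change of 0.15. The first has a transcript of 827 bases and the second one of 7491 bases. Adjusted for length, EIF4EBP1 came to 0.60 and EIF4EBP2 to -0.19, so the direction of EIF4EBP2 depends on that adjustment. EIF4ENIF1, the shuttling protein that carries eIF4E into the nucleus, was at 11.0 and 12.1 FPKM and overlapped.

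EIF4EBP3, on chromosome 5 (GRCh37, 139927251 to 139929163), had 8.15 FPKM (6.09 to 10.2) in the WT library and was listed at 0 in PERK-KO cells, with an upper limit of 0.231, and no fold is given. The same DNA is also covered by a readthrough transcript, ANKHD1-EIF4EBP3, whose exons contain 507 of the 693 bases (73.2%) of the EIF4EBP3 transcript. That row had 2.19 FPKM (1.84 to 2.54) in the WT library and 8.95 (8.19 to 9.70) in the PERK-KO library, 4.09-fold higher. The sum of both rows was 10.3 FPKM in WT and 8.95 in PERK-KO cells, a log2 change of -0.21. ANKHD1, the upstream gene alone, had 22.6 FPKM (21.2 to 24.0) and 21.3 (19.7 to 22.9), with overlapping limits. The row that was low in one library was therefore high in the other, and whether the fragments of EIF4EBP3 itself differed was not tested.

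**Figure D2:**
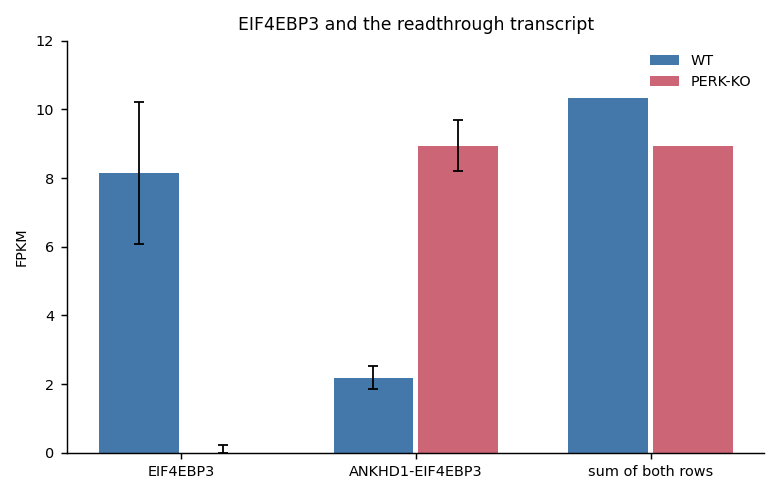
FPKM of EIF4EBP3, of the overlapping readthrough transcript ANKHD1-EIF4EBP3 and of their sum in the WT library (blue) and the PERK-KO library (red), with bars for the deposited confidence limits of the single rows. EIF4EBP3 stands at 8.15 FPKM in WT cells and is listed at 0 in PERK-KO cells, the readthrough row at 2.19 and 8.95 FPKM, and the sums at 10.3 and 8.95 FPKM.

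The late steps of initiation held the largest log2 fold change among the members with at least 1 FPKM that were detected in both libraries. EIF5B, the GTPase that joins the large ribosomal subunit, lies on chromosome 2 (GRCh37, 99953834 to 100016728). It had 90.6 FPKM (88.5 to 92.6) in the WT library and 56.8 (55.1 to 58.5) in the PERK-KO library, 1.59-fold lower with a log2 change of -0.67 (-0.73 to -0.62). With 4698 bases its transcript is long, and rows of that length were on the whole higher in PERK-KO cells, so its length-adjusted value was -0.88. EIF6, which keeps the large subunit from joining too early and acts in its maturation, had 182 FPKM (174 to 190) and 136 (129 to 143), 1.34-fold lower with a log2 change of -0.42 (-0.52 to -0.33), and -0.12 after the adjustment for its 1017 bases. The limits of both genes were apart, and both lay below the running median for their length.

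eIF5A helps the ribosome through stretches that are hard to elongate and carries the amino acid hypusine. EIF5A had 752 FPKM (726 to 777) in the WT library and 682 (655 to 710) in the PERK-KO library, a log2 change of -0.14 that came to 0.08 after adjustment for length. EIF5A2 was low, at 2.45 and 2.34 FPKM, with overlapping limits. EIF5AL1, a near copy of EIF5A, was at 83.3 and 68.5 FPKM and apart. Fragments that match both EIF5A and EIF5AL1 cannot be assigned with certainty, so the value of the copy may hold fragments of EIF5A.

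Most eEF1 genes were lower in PERK-KO cells, whereas EEF2 was higher. EEF1A1, which delivers aminoacyl-tRNA to the ribosome, was the most abundant member, with 4227 FPKM (4210 to 4243) in the WT library and 3558 (3542 to 3574) in the PERK-KO library, a log2 change of -0.25. EEF1A2, the form typical of muscle and neurons, had 27.3 FPKM (25.6 to 29.0) and 19.8 (18.2 to 21.4), 1.38-fold lower with a log2 change of -0.46 (-0.61 to -0.32), and was 0.642% and 0.553% of the summed eEF1A. EEF1B2 and EEF1D, of the complex that recharges eEF1A with GTP, had 624 and 399 FPKM in WT cells and 475 and 340 FPKM in PERK-KO cells. These 4 genes were apart and lower. EEF1G, the structural subunit of that complex, had 3686 FPKM (3533 to 3840) and 3512 (3365 to 3659) with overlapping limits. EEF1E1, a component of the complex of tRNA synthetases, was at 33.1 and 38.4 FPKM, and its readthrough row EEF1E1-MUTED at 4.03 and 2.96 FPKM. Both overlapped. The group's median was -0.25 and came to -0.05 after the adjustment for length, with EEF1A1 at -0.32, EEF1A2 at -0.36, EEF1E1-MUTED at -0.07, EEF1B2 at -0.05, EEF1D at -0.0019, EEF1G at 0.08 and EEF1E1 at 0.63. After that adjustment EEF1A1 and EEF1A2 were the genes of the group that stayed farthest below 0, and EEF1E1 passed the 1.5-fold limit upwards. The length used for EEF1E1 was 562 bases, whereas the transcript used for its exons has 1047 bases. Its adjusted value at the longer length was not computed.

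EEF2, the GTPase that moves the ribosome by one codon, had 1409 FPKM (1399 to 1419) in the WT library and 1809 (1798 to 1821) in the PERK-KO library, 1.28-fold higher with a log2 change of 0.36 (0.35 to 0.37), and 0.29 after the adjustment for length. EEF2K, the kinase that inactivates eEF2, had 5.41 FPKM (5.02 to 5.80) and 6.56 (6.10 to 7.01), 1.21-fold higher and apart. Adjusted for its length of 7398 bases, EEF2K came to -0.07, and thus changed sign. EEF2 and EEF1A1 both start with a pyrimidine run of 7 bases, as printed above, and differed in opposite directions.

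The members with the pyrimidine start were not alike in direction. Of the 19, 6 were apart and higher in PERK-KO cells, 8 apart and lower, and 5 overlapped, with a median log2 fold change of 0.00. Of the other 37 member promoters, 9 belonged to genes that were apart and higher, 14 to genes that were apart and lower and 14 to genes that overlapped, with a median of -0.03. EIF2A, at 0.59, and EIF3K, at -0.66, mark the ends of the first set, and their runs are of equal length, 8 bases. The members with the run were the more abundant ones, with a median of 219.8 FPKM in WT cells against 48.5 FPKM for the others. Over all 695 genes with such a start the median was 0.00, and over the 12071 genes without one it was 0.05. Among those 695 genes 27.2% were apart and higher, 26.5% apart and lower and 46.3% overlapped, and among the 12071 genes 28.6%, 19.2% and 52.2%.

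Promoter windows from 250 bases before to 50 bases from the start were also searched on both strands for the letters CCGGAAG, the core of sites of GABP, a transcription factor that the study links to PERK. They were found in 16 of 56 member promoters (28.6%) and in 19.2% of all 12766. Of these 16 genes, 8 had a log2 fold change above 0 and 8 below, from EIF4E2 at -0.51 to EIF2A at 0.59, with a median of -0.0014. TGATGNAA, the core of the composite element of ATF4, a transcription factor translated when eIF2 is phosphorylated, was found in 2 member promoters (3.57%), those of EIF2S2 and EEF1D, and in 1.38% of all. A match of letters is no measured binding site.

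Of 36 genes fixed as a list of the neighbouring steps of translation, 34 were in the tables, all with at least 1 FPKM. Past the 1.5-fold limit were 3 higher in PERK-KO cells and 0 lower, against 10.1% and 7.54% of all rows. Limits were apart and higher for 16 (47.1%, against 26.1% of all rows) and apart and lower for 5 (14.7%, against 18.7%), and the median log2 fold change was 0.17, or 0.06 after the adjustment for length. Over the rows of at least 10 FPKM, 29.7% were apart and higher and 28.9% lower. The list is of long transcripts, with a median of 3518.5 bases. Of the 6573 rows of 3000 bases or more, 2800 were apart and higher and 544 apart and lower. MTOR, the kinase that phosphorylates the eIF4E-binding proteins, had 7.44 FPKM (6.92 to 7.96) in the WT library and 13.7 (12.9 to 14.5) in the PERK-KO library, 1.84-fold higher. RPTOR, its partner in the complex that does so, had 7.62 (7.08 to 8.16) and 11.8 (11.1 to 12.6), 1.55-fold higher. ABCE1, which splits ribosomes after termination, had 26.4 (24.9 to 28.0) and 41.1 (39.0 to 43.2), also 1.55-fold higher. After adjustment for length, their log2 fold changes came to 0.55, 0.37 and 0.49, below the 1.5-fold limit. The most abundant genes of the list were TPT1, a growth-related protein, at 1446 and 1213 FPKM, PABPC1, the poly(A)-binding protein that eIF4G contacts, at 516 and 567 FPKM, and its relative PABPC4 at 117 and 134 FPKM. Among the 6 enzymes of the list with values that make hypusine on eIF5A or diphthamide on eEF2, 2 were apart and higher and 2 apart and lower, with a median of 0.06.

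The label of the PERK-KO library was checked with EIF2AK3, the gene of PERK, at 5.61 FPKM (5.11 to 6.12) in WT and 3.89 (3.44 to 4.34) in the PERK-KO library, 1.44-fold lower. An edited gene can still be transcribed, so this level does not by itself decide the genotype. Of the markers of HEK293 cells, NEFL was at 44.9 and 33.4 FPKM and PAX2 below 1 FPKM in both. IRS4 was at 0.121 FPKM in the WT and 27.1 FPKM in the PERK-KO library, and NEFM at 0.662 and 5.21 FPKM, so these markers were higher in PERK-KO cells. NEFL was higher in WT cells with limits apart. The limits of PAX2, at 0.981 FPKM in WT and 0.748 FPKM in PERK-KO cells, overlapped. Of 8 markers of other cell types, 4 were at 0 in both libraries, and their summed level was 7.77 FPKM in WT and 4.41 FPKM in PERK-KO cells, led by the fibroblast gene COL3A1 at 5.13 and 1.77 FPKM. The libraries thus differed in genes that mark the cell line, and the part of this in the differences between the translation factors was not tested.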

How the data were processed

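Polyadenylated RNA of 1 WT and 1 PERK-KO HEK293 culture was sequenced. The authors mapped reads to GRCh37/hg19 with TopHat2 (2.0.13) and computed FPKM with Cufflinks (2.2.1) and Cuffdiff, versions per the submitters' processing notes; the annotation and strand setting are not given in the sources used here. The deposited values are FPKM for each gene, together with a lower and an upper confidence limit. Read totals are not in the files, so depth enters only through these limits.

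From the deposited FPKM, log2 fold changes were computed without a pseudocount for rows of at least 1 FPKM in at least one sample, with a 1.5-fold limit. Their 95% intervals combine the confidence limits of both libraries. An estimate below 0.001 FPKM was taken as 0, and the PERK-KO value of EIF4EBP3 is one. EIF4EBP1 to EIF4EBP3, which are binding proteins, were kept although their symbols end like those of pseudogenes. Transcript lengths, exons and starts came from GENCODE on GRCh37, matched to 21106 rows by name or position (reciprocal overlap of at least 0.7) and present for 94.2% of expressed rows. Lengths are those of the transcript nearest to the deposited locus. Exons and starts are those of the canonical transcript, which can be another one. EEF1E1-MUTED and EIF3CL were left out of the promoter search because they share a start with another row. With 1 sample per genotype no test was made. The members and gene lists were chosen with earlier results of these data known. Values are given for every member past the limit, the 10 largest differences with limits apart, the most abundant gene of each role, all eIF2B subunits and the eIF4E-binding proteins, and from the neighbouring genes those past the limit and the 3 most abundant; the other genes were named as members of their role group. Python 3.11.15, numpy 2.4.6, pandas 2.3.3, scipy 1.17.1 and matplotlib 3.10.9 were used, and the calculations were tested on simulated data. Alternatives were other scalings, pseudocounts, filters and fold limits, summed rows and subtraction of the running median over length.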

Additional observations from a re-analysis of the deposited data

How the results depend on the processing

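With 1 library per genotype, no replicate could be left out, and the confidence limits hold no variation between cultures. No paired analysis was possible because each genotype has 1 sample. Leaving out Argonaute genes under older symbols was not run, since the tables hold none under those symbols. The count of 1 member higher past 1.5-fold rests on EIF2A alone. It came to 0 after rescaling to a median of 0, rescaling by the 75th percentile or a pseudocount of 1 FPKM. With the running median over length subtracted it came to 2 (EIF4EBP1, and EEF1E1 at the 562 bases used for it), and EIF2A, at 0.44, no longer passed. The 3 lower members include EIF4EBP3, whose row shares bases with a readthrough row. EIF4EBP3 has no finite fold and dropped out of the length subtraction. There EIF3K no longer passed the limit, at -0.32, which left 1 lower (EIF5B). Limits of 1.2, 1.3 and 2-fold gave 8, 3 and 0 higher and 13, 10 and 1 lower. For the neighbouring genes the same limits gave 11, 6 and 0 higher (3 at 1.5-fold) and 2, 1 and 0 lower, and the length subtraction 0 higher. That subtraction moved the medians of eEF1 from -0.25 to -0.0534, of eEF2 from 0.32 to 0.1103, of the cap-binding group from 0.19 to 0.0659 and of eIF5A from -0.14 to -0.2602. Its effect was counted over 57 single rows, without those of EIF3C. Of these, 36 moved by at least the half-width of their interval and 10 changed sign. The members' median of 0.0124 lies so near 0 that it came to -0.0277 and -0.0138 with the scalings, and to -0.0136 with rows of one name summed or, an alternative added after the data were seen, without rows that share sequence. The causes were not tested.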

Other observations

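The 2 pseudogene rows that the symbol rule leaves out were low and had overlapping limits: EEF1DP3 had 2.32 FPKM (1.19 to 3.45) in the WT library and 2.92 (1.56 to 4.28) in the PERK-KO library, and EIF3IP1 had 1.956 (1.25 to 2.66) and 1.59 (0.909 to 2.26). The readthrough row SENP3-EIF4A1 had 0.343 FPKM (0.170 to 0.515) and 0.720 (0.451 to 0.989), while SENP3, the upstream gene alone, had 49.0 (46.1 to 51.9) and 61.0 (57.4 to 64.5).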
